A study of Mus musculus with 17 samples.

Results

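Chromatin accessibility was examined at the mouse genes of 6 receptors that restrain or tune B cell receptor signaling and of 1 phosphatase that acts downstream of several of them: Cd22, Cd72, Siglecg, Fcgr2b, Fcer2a, Cr2 and Ptpn6. Every ATAC-seq region of the deposited table that carried the name of any of these genes, either as the overlapping or nearest gene or as the gene with the nearest transcription start site, was taken, which gave 43 of 66177 regions. Cr2 held 11 of them, Fcgr2b 9, Cd22 8, Ptpn6 5, Cd72 4, Siglecg 4 and Fcer2a 2. Regions were assigned by gene name and not by their values, although the genes were picked with earlier results of these data known. Some regions also carried a neighboring gene's name: 2 of Ptpn6, 3 of Cd22, and 1 each of Fcgr2b, Cr2 and Siglecg, so their assignment to the receptor gene is uncertain.

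ATAC-seq measures how readily a transposase inserts sequencing adapters into DNA, which is high where nucleosomes are displaced. The libraries were made from naive B cells (nB, B220+ GL7- Fas-, lymph node, male mice that were not immunized), germinal center B cells specific for phycoerythrin (GCB, B220+ GL7+ Fas+ PE+, lymph node, pools of 2 mice, female or male) and bone marrow plasma cells (BMPC, CD138+, female). GCB and BMPC were taken 30 days after immunization with PE in complete Freund's adjuvant, from mice that were 8 to 12 weeks old when experiments began. Dnmt3-sufficient mice (C) were Dnmt3afl/fl Dnmt3bfl/fl without Cre, and Dnmt3-deficient mice (KO) were Dnmt3afl/fl Dnmt3bfl/fl with 1 Cre allele, all from a B6;129S4 stock with the alleles Dnmt3atm3.1Enl and Dnmt3btm5.1Enl as the labels give them, where the study's methods name another Dnmt3a allele of that series. Controls thus carried the floxed alleles of both de novo DNA methyltransferases too, and only KO mice carried Cre, which is expressed in the B lineage from an endogenous gene, so that 1 allele of that gene is altered in KO mice. There were 3 C and 2 KO libraries of nB, 2 C and 4 KO libraries of GCB and 3 C and 2 KO libraries of BMPC.

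The 7 genes are textbook brakes or tuning devices of the B cell response. CD22 and Siglec-G bind sialic acid, CD72 binds semaphorin 4D, and Fc gamma RIIB binds IgG in immune complexes; each carries cytoplasmic motifs that recruit phosphatases, among them SHP-1, which Ptpn6 encodes. CD23, encoded by Fcer2a, is the low-affinity IgE receptor of naive B cells, and CD21, encoded by Cr2, binds complement fragments and lowers the threshold for activation. Plasma cells are known to lose most surface receptors of the naive B cell while they keep Fc gamma RIIB.

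Reads in regions numbered 4104875 to 6079018 in nB, 907959 to 2280954 in GCB and 5357687 to 8232313 in BMPC libraries. Values are RPPM, which give a region's reads as a share of the library's reads in peaks (on the RPM scale), and 3 reads, taken as the floor of detection, were worth 0.364 to 3.30 RPPM, most in GCB. These floors cover counting error only. Of the marker regions at or near transcription start sites, some separated naive from plasma cells: Pax5 gave 36.0 to 47.7 RPPM in nB and 2.02 to 3.89 in BMPC, and Tnfrsf17 gave 15.5 to 22.6 in BMPC and at most 6.36 elsewhere. Other plasma cell markers were less specific, since Prdm1 was at 39.5 to 52.9 RPPM in nB and 64.8 to 70.4 in BMPC, Xbp1 at 59.0 to 64.0 and 68.5 to 82.1, and Irf4 was lower in BMPC, at 38.9 to 46.9 against 55.1 to 61.2 in nB. The 13 regions at Dnmt3a and Dnmt3b gave no call between genotypes in any cell type, but they are not known to lie in the deleted exons and so do not check the deletion.

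Most of the receptor regions were less accessible in BMPC than in nB. In C cells, 24 of the 43 regions were called lower in BMPC than in nB, where 20.1% of all regions were called lower, and 2 of the 43 were called higher, where 18.0% of all regions were. A call meant a limma test on log2(RPPM + 1) with an adjusted p of at most 0.01 over all 66177 regions and a difference of at least 1 on the log2 scale. The median log2 difference was -1.50 over the 43 regions and 0.03 over all regions. The calls that fell covered all 7 genes: 8 of 11 Cr2 regions, 5 of 8 Cd22 regions, 3 of 4 Cd72 regions, 3 of 4 Siglecg regions, both Fcer2a regions, 2 of 9 Fcgr2b regions and 1 of 5 Ptpn6 regions. Naive cells came from male and unimmunized mice and plasma cells from female, immunized mice and from another organ, so the cell type cannot be told apart from sex, immunization and tissue. GCB, from immunized mice of either sex, differed from nB in immunization and partly in sex, and from BMPC in tissue and partly in sex. Comparisons with GCB therefore carry a like limit. In bulk cells, fewer cells with an open region and a less open region in every cell cannot be told apart either. The 3 cell types were sorted as separate populations, and no selection for PE binding is stated for BMPC. Words such as step, stage, rise or fall describe differences between these populations, not a traced lineage.

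Fewer member regions were called between nB and GCB than between GCB and BMPC. The order was the same over all regions in C cells, with 15029 and 20110 calls. From nB to GCB in C cells, 9 of 43 regions were called lower, beside 8.47% of all regions, and 2 were called higher, beside 14.2%. From GCB to BMPC, 16 were called lower, beside 19.1%, and 1 was called higher, beside 11.3%. The median log2 difference over the members was -0.52 for the first comparison and -0.79 for the second, against 0.05 and -0.06 over all regions. Of the 24 regions called lower in BMPC than in nB, 8 were also called lower in GCB than in nB and 15 were not called between nB and GCB, although these comparisons share the nB libraries. The remaining region, downstream of Cd22, was higher in GCB. No call was made in any of the 3 comparisons for 15 regions.

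**Figure D1:**
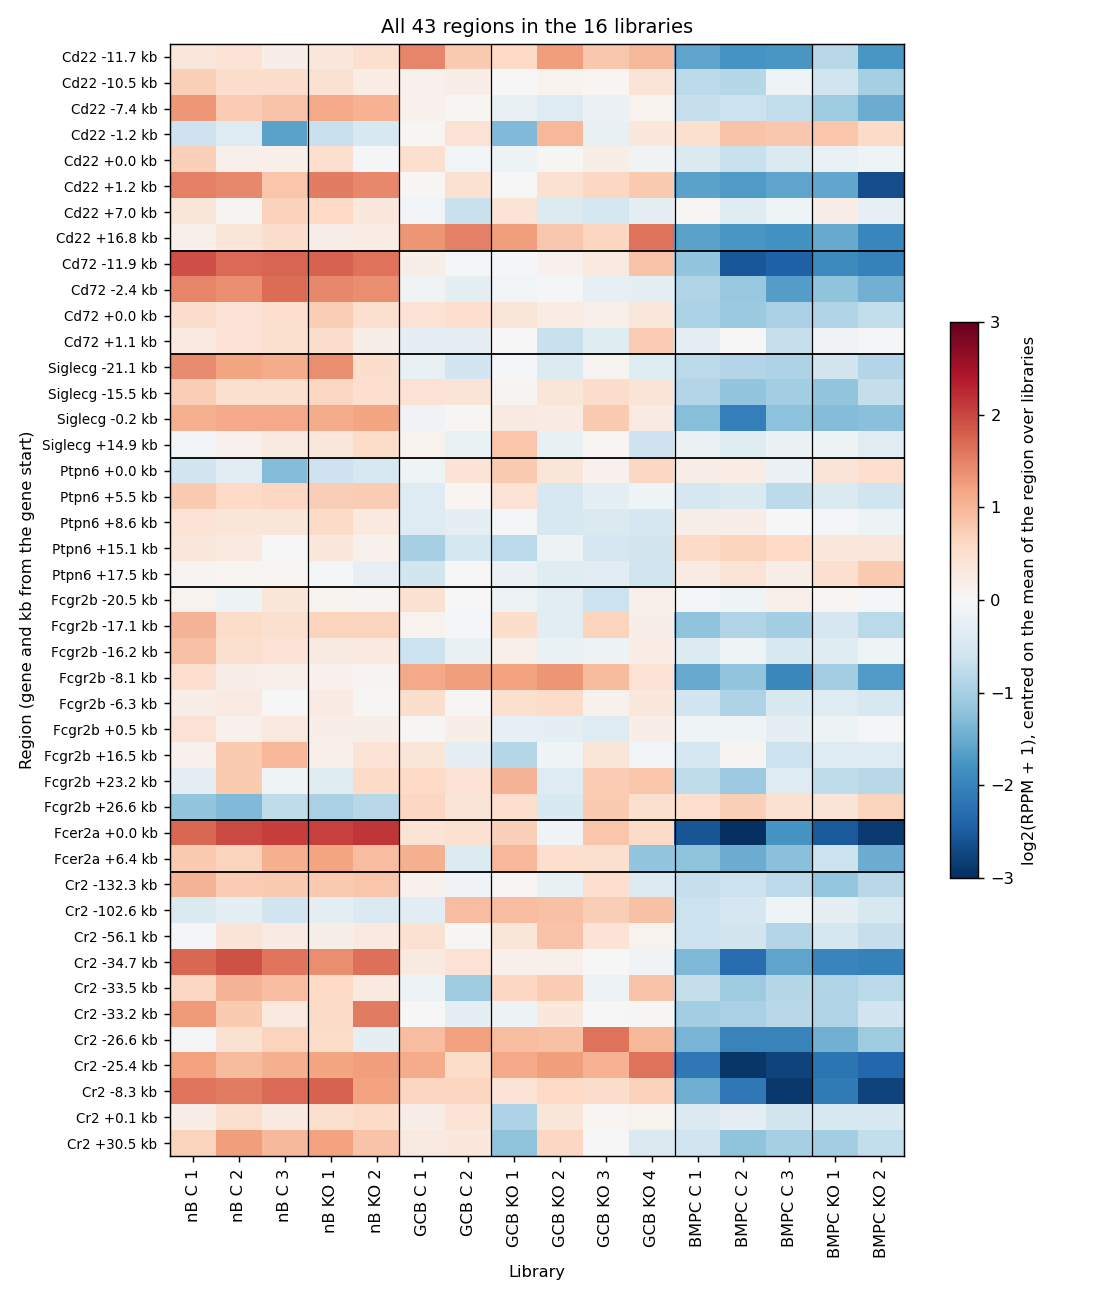
Accessibility of all 43 regions (rows, by gene and by distance of the region's centre from the gene start in kb, negative upstream) in the 16 libraries (columns), as log2(RPPM + 1) minus the region's mean over libraries, with the color scale ending at 3 in either direction. Red rows in the nB columns turn blue in the BMPC columns for most regions of Cr2, Cd72, Siglecg and Fcer2a, whereas Ptpn6 rows stay pale.

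The letters under the 43 regions were searched for short motifs of B cell factors on both strands of mm9. The motifs were GGAAGT (PU.1 core), GGAANNGAA (the composite of PU.1 and an interferon regulatory factor, which can overlap the former), CAGCTG and CACCTG (E2A), ATGCAAAT (Oct-2), GAAAC (interferon regulatory factor core), CCCNNGGG (EBF1) and GTGGGAA (RBPJ). The composite was present in 11 of 43 regions (25.6%), against 19.4% of all regions of like width, and ATGCAAAT was present in 5 (11.6%), against 6.0%. GGAAGT was present in 22 (51.2% against 43.9%), CAGCTG in 16 (37.2% against 32.8%), CACCTG in 17 (39.5% against 42.2%), GAAAC in 32 (74.4% against 73.5%), CCCNNGGG in 10 (23.3% against 21.5%) and GTGGGAA in 8 (18.6% against 12.1%). Among the 24 regions that fell from nB to BMPC in C cells the composite was present in 7, and among the other 19 in 4, while GGAAGT was present in 10 and 12, CACCTG in 7 and 10 and GAAAC in 16 and 16. CAGCTG was present in 8 and 8, ATGCAAAT in 3 and 2, CCCNNGGG in 5 and 5 and GTGGGAA in 4 and 4. Of all regions that fell in this comparison, 20.5% held the composite, 55.7% GGAAGT, 26.3% CAGCTG and 31% CACCTG. ATGCAAAT was in 6.42% of them, GAAAC in 72.0%, CCCNNGGG in 16.2% and GTGGGAA in 9.72%. These are matches of letters and were not tested, and 2 of the 43 regions held none of the 8 motifs. The members were similar to all regions in width, with a median of 535 bp against 511 bp, and in GC content, with 47.8% against 48.9%, and held fewer CpG dinucleotides, with a median of 9.36 per kb against 14.6.

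The windows of 30 bases given here come from regions described in the next paragraphs and let the matches be read beside the values. They are written 5′ to 3′ on the strand named, in mm9 coordinates, with the motif in capitals. The Cr2 and Fcgr2b windows at the top share the stretch GGAAGTGAA, which holds both the PU.1 core and the composite, and the regions around them moved differently.
Cr2, 25.4 kb upstream, chr1:197027997-197028026, minus strand: ggagaaagaaGGAAGTGAAtttaattatgt
Fcgr2b, at the start, chr1:172906217-172906246, plus strand: agtccaaatggGGAAGTGAAaagaaacggt
Cd22, 1.2 kb inside the gene, chr7:31664144-31664173, minus strand: ggaagggaagGGAAGCGAAgggacacagct
Cd72, 11.9 kb upstream, chr4:43479430-43479459, minus strand: aaaagaaggaGGAAGAGAAataaaatgtac
Fcer2a, at the start, chr8:3694270-3694299, plus strand: cctagaacctggGGAAGTccgggctattat
Siglecg, at the start, chr7:50663119-50663148, plus strand: cataaattacaaGTGGGAAattcagttctc
Cr2, 34.7 kb upstream, chr1:197037336-197037365, plus strand: acggatctgtaATGCAAATcatacaacacc
Fcgr2b, 8.1 kb upstream, chr1:172914843-172914872, plus strand: accttttagaaATGCAAATggcctaggttt
Ptpn6, 8.6 kb inside the gene, chr6:124680340-124680369, plus strand: aggaagtctccATGCAAATgtgaacagacc

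Among the sialic acid receptors, Cd22 (chr7:31650421-31665361, minus strand) showed its highest signal in an intergenic region 7.4 kb upstream of the gene start (chr7:31672246-31673236). The nB C libraries gave 74.5, 50.7 and 54.3 RPPM there, the GCB C libraries 32.5 and 30.9, and the BMPC C libraries 17.9, 18.4 and 17.4. The 3 cell types did not overlap. The log2 difference from nB to BMPC was -1.66 (SE 0.16 and adjusted p = 5.03e-10, limma) and that from nB to GCB was -0.87 (SE 0.17 and adjusted p = 1.88e-04), which fell short of 2-fold and was not called.

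A second Cd22 region covers a transcript start 1.2 kb inside the gene and is annotated as promoter, 5′ UTR, exon and intron (chr7:31663863-31664505). It held 3 overlapping composite matches, of which 1 is printed above. Its nB C values were 23.6, 22.6 and 14.3 RPPM, its GCB C values 7.92 and 10.8, and its BMPC C values 1.82, 1.64 and 1.87, again without overlap. The region fell by 2.90 on the log2 scale from nB to BMPC (SE 0.27 and adjusted p = 3.97e-10). The fall from nB to GCB was 1.02 (adjusted p = 7.27e-03), close to both limits, and was not called with 6 of the libraries left out in turn or with pseudocounts of 0.1 or 5 RPPM or quantile normalization.

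Other Cd22 regions departed from this course and were picked out after their values were seen. The region over the outermost gene start (chr7:31665060-31665570) had 13 ± 3.27 RPPM (SD, n = 3) in nB C and 6.62 ± 0.679 (n = 3) in BMPC C, and its log2 difference of -0.86 was not called (adjusted p = 1.45e-03). A region 1.2 kb upstream (chr7:31666365-31666792) rose instead, from 2.44, 3.01 and 0.744 RPPM in nB C to 6.37, 8.58 and 8.25 in BMPC C, a log2 difference of 1.59 (SE 0.39 and adjusted p = 1.04e-03). The outer pair, 11.7 kb upstream and 16.8 kb downstream of the start, had their highest C values in GCB. The downstream region, which lies nearest to the start of Ffar1 (chr7:31648519-31648699), gave 4.14, 4.90 and 5.58 RPPM in nB C, 10.6 and 12.2 in GCB C, and 0.520, 0.365 and 0.311 in BMPC C. It rose by a log2 difference of 1.08 from nB to GCB (SE 0.32 and adjusted p = 7.71e-03) and fell by 3.14 from GCB to BMPC (adjusted p = 4.93e-09), with BMPC C values of 2 to 4 reads.

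Siglecg (chr7:50663574-50673728, plus strand) encodes the other sialic acid receptor, and its promoter lost accessibility at both steps. The region over 4 transcript starts (chr7:50662860-50663941) gave 54.1, 56.3 and 56.6 RPPM in nB C, 23.3 and 25.8 in GCB C and 9.88, 5.29 and 10.1 in BMPC C. No library of 1 cell type reached the range of another. The log2 difference was -1.15 from nB to GCB (SE 0.20 and adjusted p = 4.00e-05) and -2.63 from nB to BMPC (SE 0.18 and adjusted p = 1.11e-12). The first of these was -0.96 and not called after quantile normalization. In KO cells the fall from nB to GCB, from 57.4 ± 2.06 RPPM (n = 2) to 33.8 ± 7.02 (n = 4), was not called.

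The strongest Siglecg region, intergenic and 15.5 kb upstream (chr7:50647622-50648572), kept its level in GCB. It gave 68.2, 56.7 and 57.0 RPPM in nB C, 55.4 and 52.9 in GCB C and 21.6, 17.2 and 19.0 in BMPC C, so that GCB lay just below nB and BMPC far below both. The log2 difference was -0.15 from nB to GCB (SE 0.15 and adjusted p = 0.433) and -1.61 from nB to BMPC (SE 0.14 and adjusted p = 8.29e-11). The region 21.1 kb upstream was called lower in both comparisons, at 4.18 ± 0.608 RPPM (n = 3) in nB C, 0.674 ± 0.291 (n = 2) in GCB C and 0.199 ± 0.0542 (n = 3) in BMPC C. The region 14.9 kb downstream, which lies nearest to Lim2, was not called in any comparison.

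At Cd72 (chr4:43459334-43467500, minus strand) the promoter and the upstream regions parted at the GCB stage. The region over 8 transcript starts (chr4:43467091-43467942) gave 50.9, 47.7 and 49.9 RPPM in nB C, 47.1 and 49.7 in GCB C and 17.6, 15.7 and 17.4 in BMPC C. The nB and GCB libraries overlapped, with a log2 difference of -0.03 (SE 0.14 and adjusted p = 0.867), and BMPC lay below both, with a difference of -1.50 from nB (SE 0.12 and adjusted p = 3.59e-11). By contrast, the region 2.4 kb upstream (chr4:43469437-43470423) gave 44.3, 42.2 and 51.4 RPPM in nB C, 14.1 and 12.6 in GCB C and 7.67, 6.39 and 4.20 in BMPC C. Most of its fall was therefore present in GCB, with log2 differences of -1.71 from nB to GCB (SE 0.20 and adjusted p = 1.53e-07) and -1.05 from GCB to BMPC (SE 0.20 and adjusted p = 1.01e-04). The region 11.9 kb upstream, named after its values were seen (chr4:43478838-43480024), went from 29.5, 24.7 and 25.7 RPPM in nB C to 7.92 and 6.56 in GCB C and 2.47, 0.365 and 0.467 in BMPC C. Its log2 difference from nB to BMPC, -3.85 (SE 0.29 and adjusted p = 6.45e-12), was second in size only to that of Fcer2a among the 43 regions. The intragenic region 1.1 kb from the start was not called.

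**Figure D2:**
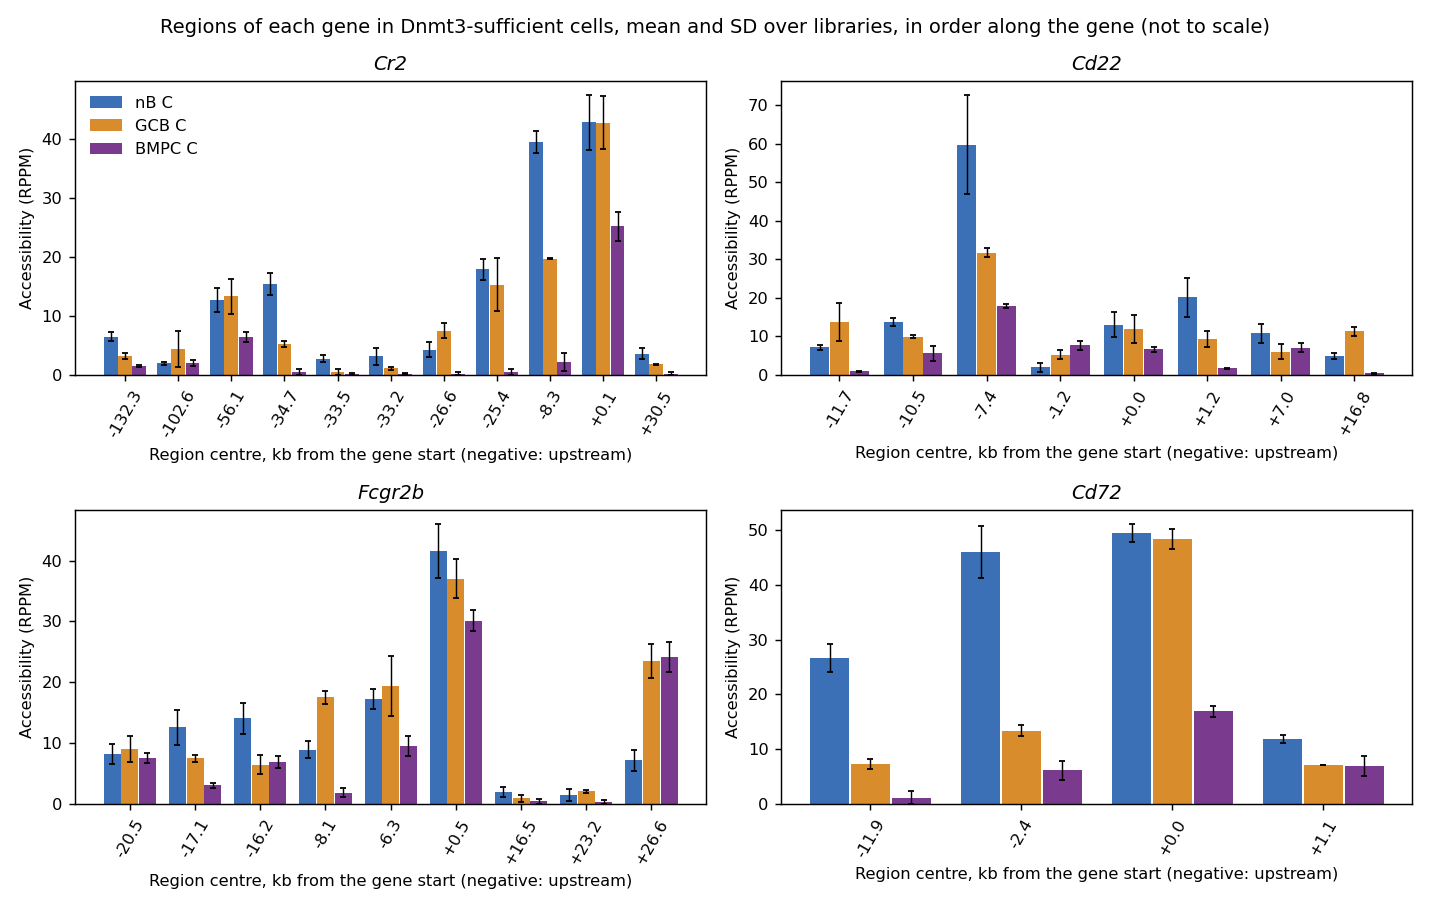
Accessibility in RPPM (vertical axes) of each region of Cr2, Cd22, Fcgr2b and Cd72 in nB, GCB and BMPC of C mice, as bars for the mean and error bars for the SD over 3, 2 and 3 libraries, with regions in order of distance from the gene start (horizontal axes, evenly spaced, kb). The Cr2 regions 8.3, 25.4 and 34.7 kb upstream and the Cd72 region 11.9 kb upstream have means of 0.511 to 2.19 RPPM in BMPC, whereas the start regions of Cr2 and Fcgr2b keep 25.2 and 30.2 RPPM.

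Fcgr2b (chr1:172890689-172906678, minus strand), the gene of the inhibitory IgG receptor, was the receptor gene whose start region moved least from nB to BMPC. This region (chr1:172905735-172906684, promoter, 5′ UTR, exon and intron) gave 46.0, 37.1 and 41.7 RPPM in nB C, 34.7 and 39.3 in GCB C and 31.1, 31.2 and 28.2 in BMPC C. The BMPC values lay below the others by little, a log2 difference of -0.45 from nB (SE 0.14 and adjusted p = 7.60e-03) that was not called. In KO cells the same difference was -0.30 (SE 0.17 and adjusted p = 0.145). It is the region whose printed window shares GGAAGTGAA with the Cr2 region 25.4 kb upstream.

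Around this steady start, Fcgr2b regions moved in both directions. The region 26.6 kb downstream, whose nearest start is that of Fcrla (chr1:172879748-172880438), rose from 6.58, 5.84 and 9.12 RPPM in nB C to 25.5 and 21.5 in GCB C and 23.1, 27.0 and 22.4 in BMPC C. The nB libraries lay below all others, with log2 differences of 1.60 to GCB (SE 0.25 and adjusted p = 1.07e-05) and 1.64 to BMPC (SE 0.23 and adjusted p = 5.43e-07). Fcrla encodes an intracellular relative of Fc receptors that is active in germinal center B cells. The region 17.1 kb upstream (chr1:172923582-172923980) fell from 15.8, 11.3 and 10.6 RPPM in nB C to 7.92 and 7.03 in GCB C and 2.60, 3.47 and 3.11 in BMPC C, a log2 difference of -1.73 from nB to BMPC (SE 0.25 and adjusted p = 9.48e-07).

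The region 8.1 kb upstream of Fcgr2b (chr1:172914574-172915012), picked out after its values were seen, peaked in GCB. It gave 10.5, 8.29 and 8.0 RPPM in nB C, 16.7 and 18.3 in GCB C and 1.82, 2.55 and 1.09 in BMPC C. The 3 cell types did not overlap in C mice, and in KO mice 1 GCB library, at 9.79 RPPM, came close to the nB libraries at 7.73 and 7.48. The log2 difference was 0.91 from nB to GCB, below 2-fold (adjusted p = 0.0133), and -2.74 from GCB to BMPC (SE 0.29 and adjusted p = 1.04e-08). The region 16.2 kb upstream was the remaining Fcgr2b call in C cells, lower in GCB than in nB by a log2 difference of -1.03 (adjusted p = 1.00e-03), and the other 4 regions were not called in C cells.

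Fcer2a (chr8:3681737-3694174, minus strand) showed the largest fall of all members. Its start region (chr8:3693815-3694592) gave 36.8, 43.7 and 46.7 RPPM in nB C, 14.1 and 14.5 in GCB C and 0.910, 0.365 and 2.34 in BMPC C, or 7, 2 and 15 reads. The cell types did not overlap in either genotype. From nB to BMPC the log2 difference was -4.39 (SE 0.26 and adjusted p = 7.09e-14), a value that the added 1 RPPM makes smaller than the ratio of the means. GCB already differed from nB by -1.50 (SE 0.29 and adjusted p = 1.55e-04), and BMPC differed from GCB by -2.90 (SE 0.29 and adjusted p = 4.30e-09). The intragenic region 6.4 kb from the start (chr8:3687628-3687985) followed at a lower level, from 5.92 ± 1.03 RPPM (n = 3) in nB C to 0.546 ± 0.157 (n = 3) in BMPC C, a log2 difference of -2.16 (adjusted p = 6.91e-05). Its 2 GCB C libraries, at 7.04 and 1.87 RPPM, spanned the nB range and most of the way to BMPC.

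Cr2 (chr1:196963005-197002909, minus strand), the gene of the complement receptor, kept much of its promoter signal and lost most of its upstream signal. The start region (chr1:197002438-197003263) gave 39.2, 48.0 and 41.1 RPPM in nB C, 39.6 and 45.9 in GCB C and 25.0, 27.7 and 22.9 in BMPC C. The nB and GCB libraries overlapped, with a log2 difference of -2.52e-04 (SE 0.22 and adjusted p = 0.999), and BMPC lay below both by a difference of -0.74 from nB (SE 0.20 and adjusted p = 2.08e-03), which was not called. In KO cells this difference was -0.99 (SE 0.24 and adjusted p = 1.08e-03), just short of a call, and it was called with TMM scaling and with edgeR and DESeq2.

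The region 25.4 kb upstream of Cr2 (chr1:197027836-197028704) was as open in GCB as in nB and nearly closed in BMPC. It gave 19.7, 16.2 and 17.9 RPPM in nB C, 18.5 and 12.2 in GCB C and 1.04, 0.182 and 0.311 in BMPC C, the last from 8, 1 and 2 reads. The log2 difference was -0.24 from nB to GCB (SE 0.27 and adjusted p = 0.493) and -3.68 from nB to BMPC (SE 0.24 and adjusted p = 3.61e-13). The region 34.7 kb upstream (chr1:197037293-197037827) instead fell at each step, from 15.1, 17.3 and 13.8 RPPM in nB C to 4.84 and 5.62 in GCB C and 0.910, 0.00 and 0.623 in BMPC C. Its differences were -1.39 from nB to GCB (SE 0.31 and adjusted p = 5.63e-04) and -3.49 from nB to BMPC (SE 0.27 and adjusted p = 1.73e-11). A region 8.3 kb upstream (chr1:197010763-197011603), named after its values were seen, gave 39.0, 37.9 and 41.5 RPPM in nB C, 19.8 and 19.7 in GCB C and 3.77, 2.01 and 0.779 in BMPC C. It held none of the 8 motifs, and its difference from nB to BMPC was -3.78 (SE 0.25 and adjusted p = 6.80e-13).

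The region 26.6 kb upstream of Cr2 (chr1:197029398-197029604) was weak, and its GCB C values of 6.60 and 8.43 RPPM exceeded the nB C values of 2.92, 4.52 and 5.40. The difference of 0.71 was not called (adjusted p = 0.105), while the fall from nB to BMPC was called at -2.17 (SE 0.32 and adjusted p = 1.18e-06) in C cells, with 4, 0 and 0 reads in BMPC C. With a pseudocount of 5 RPPM this fall was -0.84 and not called. The other 6 Cr2 regions held means of 1.96 to 12.7 RPPM in nB C, and 4 of them were called lower in BMPC. The region 102.6 kb upstream was not called in C cells and was called higher in GCB than in nB in KO cells, at 1.21 (SE 0.32 and adjusted p = 2.77e-03).

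Ptpn6 (chr6:124670725-124688732, minus strand), the phosphatase gene, kept its accessibility in BMPC except at a single start. The region over 3 transcript starts 5.5 kb inside the gene (chr6:124682910-124683492) gave 42.9, 37.7 and 38.3 RPPM in nB C, 18.5 and 25.3 in GCB C and 16.9, 17.7 and 13.7 in BMPC C. It fell by 1.25 on the log2 scale from nB to BMPC (SE 0.18 and adjusted p = 9.54e-07), and GCB and BMPC were not told apart (log2 difference -0.41, adjusted p = 0.0886). The outermost start, also over 3 transcript starts (chr6:124688497-124688962) and named after its values were seen, moved the other way. It gave 7.06, 8.67 and 3.91 RPPM in nB C, 10.1 and 15 in GCB C and 13, 13.1 and 9.65 in BMPC C, a log2 difference of 0.82 from nB to BMPC (SE 0.23 and adjusted p = 3.88e-03) that did not reach 2-fold. In KO cells alone this start was called higher in GCB than in nB, at 16.1 ± 3.29 RPPM (n = 4) against 7.29 ± 0.542 (n = 2).

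The intronic regions of Ptpn6 dipped in GCB. The strongest, 8.6 kb from the start (chr6:124679599-124680667), gave 61.6, 59.5 and 59.0 RPPM in nB C, 34.7 and 37.9 in GCB C and 51.9, 52.7 and 45.6 in BMPC C. The GCB libraries were lowest, and the nB to GCB difference of -0.71 (SE 0.14 and adjusted p = 1.46e-04) was below 2-fold. The region 15.1 kb from the start (chr6:124673155-124674090), which lies nearest to Mir200c, was the only member called higher from GCB to BMPC in C cells, at 10.6 and 15 RPPM in GCB C and 33.2, 35.6 and 33.9 in BMPC C (log2 difference 1.37, SE 0.19 and adjusted p = 7.73e-07). The region 17.5 kb from the start also lies nearest to the start of Mir200c and is annotated as promoter, exon, intron and 3′ UTR. It was called higher from GCB to BMPC in KO cells at 1.01 (SE 0.17 and adjusted p = 1.31e-05). That call was lost with BMPC KO replicate 2 or GCB KO replicate 4 left out.

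Calls were counted separately for start regions and other regions, without a test of the difference. Of the 9 member regions over a transcription start site, 5 were called lower in BMPC than in nB in C cells (55.6%), and of the other 34, 19 were (55.9%). Among all regions of the table these shares were 4.24% of 11672 regions over a start and 23.5% of the other 54505. The median log2 difference was -1.25 for the 9 start regions and -1.58 for the other 34, against 0.10 and -0.03 over all regions of either kind. From nB to GCB, 3 of the 9 start regions and 6 of the other 34 were called lower, with medians of -0.16 and -0.56. Among all regions the shares were 6.79% over a start and 8.82% elsewhere, with medians of -0.21 and 0.14. The median of the member start regions was thus not below that of all start regions.

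Signal summed over the regions of a gene gave the level of each gene in every group, without a test. Fcer2a went from 48.3 ± 5.71 RPPM (SD, n = 3) in nB C to 18.8 ± 3.34 (n = 2) in GCB C and 1.75 ± 1.13 (n = 3) in BMPC C. Cd72 went from 134 ± 6.58 RPPM through 76.0 ± 0.146 to 31.0 ± 3.76, Cr2 from 151 ± 6.31 through 115 ± 0.619 to 39.1 ± 3.83, Siglecg from 133 ± 4.35 through 90.5 ± 2.07 to 37.4 ± 5.46, and Cd22 from 132 ± 19.7 through 99.4 ± 6.80 to 48.3 ± 2.42. The nB mean was thus 27.6 times the BMPC mean for Fcer2a, 4.32 times for Cd72, 3.85 times for Cr2, 3.56 times for Siglecg and 2.73 times for Cd22. Fcgr2b and Ptpn6 did not follow this order. Fcgr2b was at 113 ± 9.37, 123 ± 5.42 and 83.9 ± 3.34 RPPM and Ptpn6 at 157 ± 8.76, 103 ± 19.4 and 142 ± 10.7, with nB to BMPC ratios of 1.35 and 1.11. The Fcgr2b sum, and its value per kb below, include the region 26.6 kb downstream that lies nearest to the start of Fcrla. That region had means of 7.18, 23.5 and 24.2 RPPM in nB, GCB and BMPC C. It rose by more from nB to GCB than the sum did, so the place of Fcgr2b depends on this uncertain assignment.

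**Figure D3:**
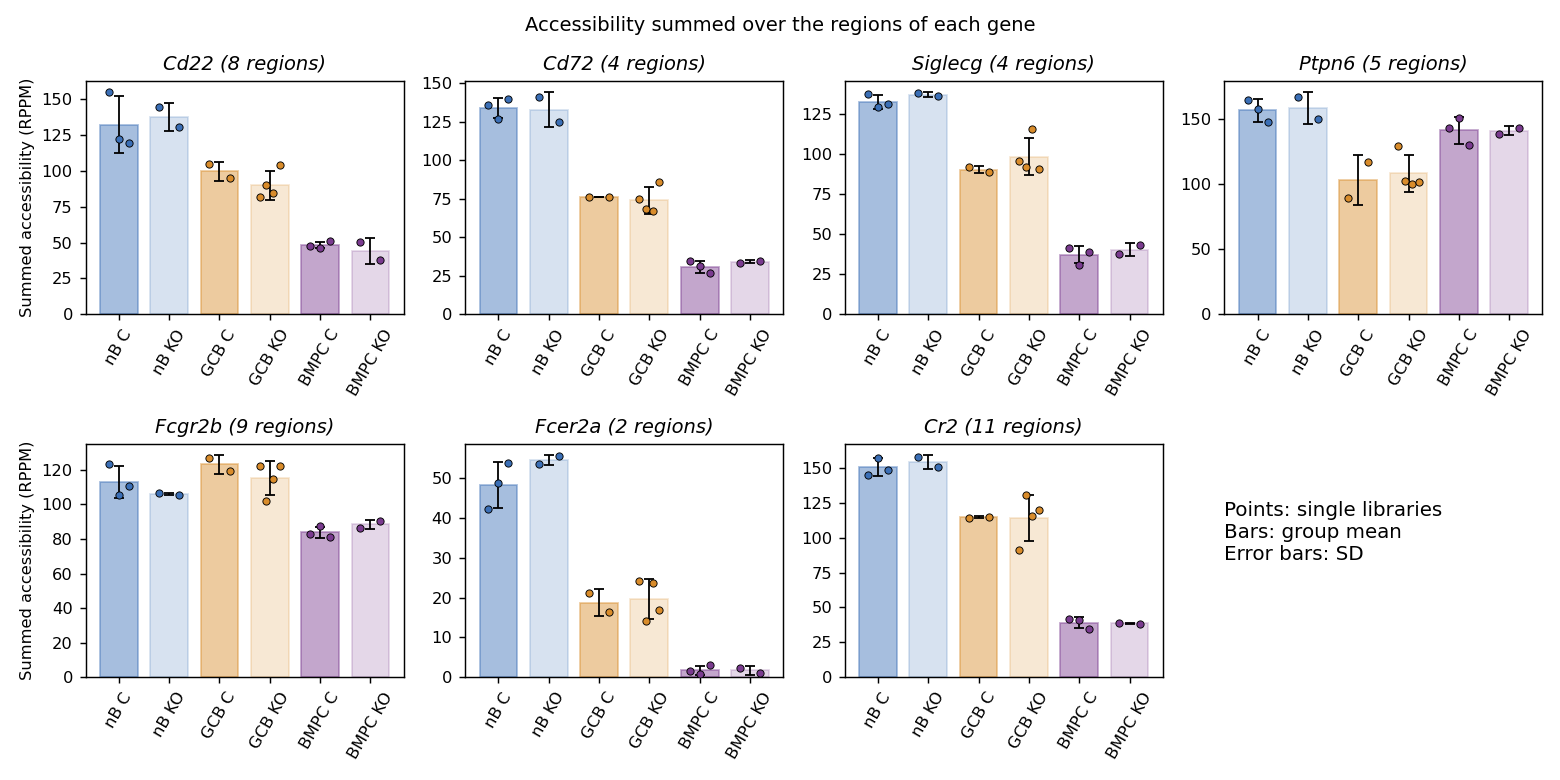
Accessibility summed over the regions of each gene (vertical axes, RPPM, from 0) in the 6 groups, as points for single libraries, bars for group means and error bars for the SD. Fcer2a drops from 48.3 to 1.75 RPPM between nB C and BMPC C, while Ptpn6 is lowest in GCB, and C and KO bars of the same cell type are close for every gene.

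Per kb of region, which allows genes to be compared, the order in nB C was Siglecg at 42.8 RPPM per kb, Fcer2a at 42.5, Ptpn6 at 41.9, Cd72 at 37.2, Cd22 at 32.3, Cr2 at 27.8 and Fcgr2b at 23.1. Siglecg and Fcer2a, Fcer2a and Ptpn6, and Cd22 and Cr2 differed by less than the larger SD of the pair. In GCB C the order was Siglecg at 29.1, Ptpn6 at 27.6, Fcgr2b at 25.1, Cd22 at 24.4, Cr2 at 21.2, Cd72 at 21.1 and Fcer2a at 16.5, and each pair of neighbors among Siglecg, Ptpn6, Fcgr2b and Cd22 differed by less than the larger SD. In BMPC C the order was Ptpn6 at 37.8, Fcgr2b at 17.1, Siglecg at 12.0, Cd22 at 11.8, Cd72 at 8.59, Cr2 at 7.23 and Fcer2a at 1.54, and Siglecg and Cd22 alone were within that spread. The phosphatase gene thus headed the order in BMPC and the IgE receptor gene closed it.

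The genotype made no called difference at any member. KO cells were compared with C cells within each cell type, which asks whether loss of both de novo methyltransferases changes accessibility there. By limma, 0 of 43 regions were called in nB, GCB or BMPC, beside 0% of all regions in nB, 0.0317% in GCB and 0.104% in BMPC. At an unadjusted p under 0.05 there were 0 of 43 member regions in nB, 2 in GCB and 2 in BMPC. Of all 66177 regions, 1107 in nB, 7801 in GCB and 6320 in BMPC reached that level by limma. Both tests of edgeR and DESeq2 also called 0 members in each cell type. Over all regions in BMPC, edgeR called 1201 by quasi-likelihood and 1677 by likelihood ratio, and DESeq2 called 494. The median log2 difference over the members was 0.01 in nB, 0.02 in GCB and 0.06 in BMPC, and that in GCB was -0.03 with TMM scaling.

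The member difference with the smallest p was at the Cd22 region 7.4 kb upstream in BMPC. KO libraries gave 13.6 and 9.89 RPPM there and C libraries 17.9, 18.4 and 17.4, without overlap. The log2 difference was -0.59 (95% confidence interval -0.94 to -0.23) with an adjusted p of 0.12, so it was not called. In nB and GCB the same region differed between genotypes by 0.13 and -0.27. The largest difference in size, 1.13 (95% confidence interval 0.39 to 1.86, adjusted p = 0.194), was at the Cr2 region 33.5 kb upstream in GCB (chr1:197036304-197036480), at 0.880 and 0.00 RPPM in C and 2.20, 2.55, 0.877 and 2.80 in KO, where the C libraries were below their floor of 3 reads and the groups overlapped. The Siglecg start was 0.43 higher in KO than in C GCB (95% confidence interval 0.04 to 0.82, adjusted p = 0.377), and without the KO library at 44.3 RPPM the other KO libraries still lay at 29.9 to 30.8, above the C libraries at 23.3 and 25.8. The Ptpn6 region 17.5 kb from the start was 0.37 higher in KO than in C BMPC (95% confidence interval 2.38e-03 to 0.73, adjusted p = 0.517).

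**Figure D4:**
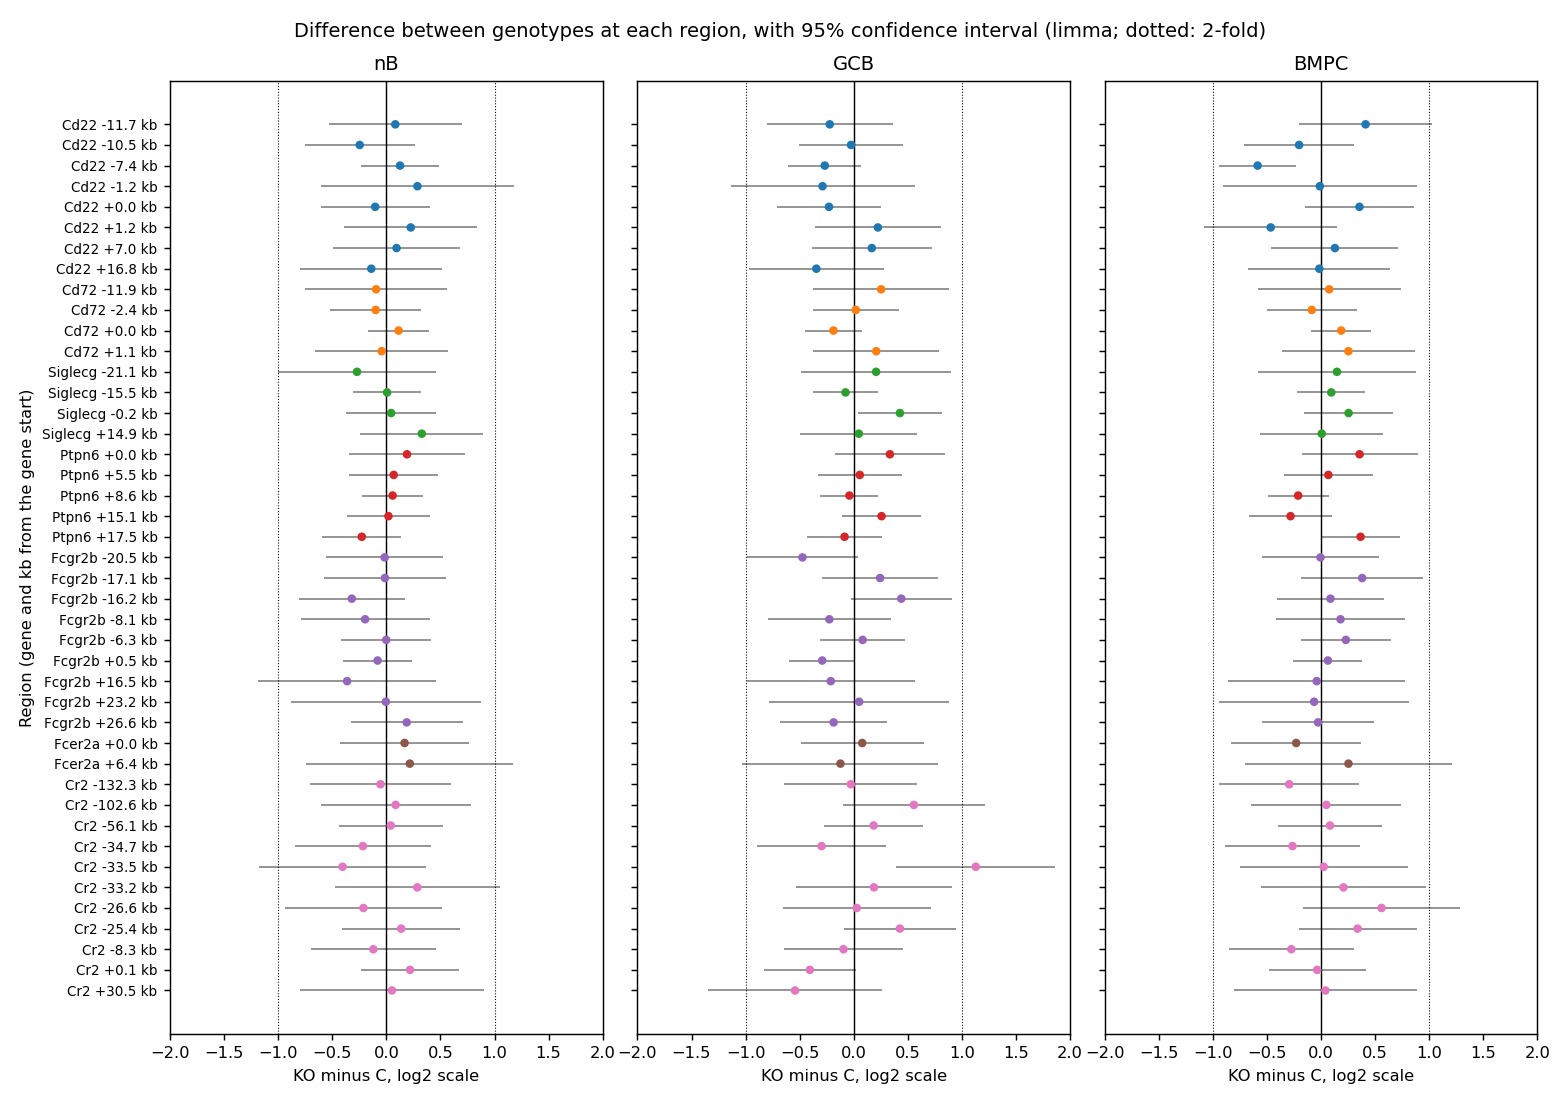
Difference between KO and C at each of the 43 regions (rows) in nB, GCB and BMPC, on the log2 scale (horizontal axes), as points with 95% confidence intervals from limma. Nearly all intervals include 0, and the largest difference, 1.13, is at a Cr2 region in GCB.

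The changes between cell types were accordingly found in KO cells as well, in libraries of their own, although both genotypes shared 1 estimate of the spread. From nB to BMPC, 23 members were called lower in KO cells, beside 16.9% of all regions, and 1 was called higher, beside 18.4%. All 24 of these calls were also made in C cells in the same direction, which is 92.3% of the C calls. Over all regions, 86.3% of KO calls were shared in that way, and they were 79.9% of the C calls. The 2 calls made in C alone were the rising region 1.2 kb upstream of Cd22 (KO difference 1.29, adjusted p = 0.0263) and the Cr2 region 33.5 kb upstream (KO difference -1.30, adjusted p = 0.0102). With a pseudocount of 5 RPPM, 16 C and 14 KO calls were made.

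From nB to GCB in KO cells 8 members were called lower, beside 7.84% of all regions, and 3 higher, beside 18.4%, and 7 of these 11 calls were shared with C, which is 63.6% of either list, where over all regions 76.9% of C calls and 66.5% of KO calls were shared. The 11 KO calls became 5 when nB KO replicate 1 was left out. From GCB to BMPC in KO cells 19 members were called lower, beside 19.9%, and 1 higher, beside 12.1%, and 14 calls were shared, which is 82.4% of the C calls and 70.0% of the KO calls, beside 77.7% and 73.9% over all regions. Whether a change differed between the genotypes was tested as an interaction: 0 of 43 regions were called for GCB against nB, for BMPC against nB or for BMPC against GCB, and 0% of all regions were called in each by limma. At an unadjusted p under 0.05 there were 3, 2 and 2 members, beside 4107, 3470 and 5509 of all 66177 regions. The tests of edgeR and DESeq2 called no member. The smallest unadjusted p for BMPC against nB, 7.34e-03, belonged to the Cd22 region 7.4 kb upstream, with log2 differences of -1.66 in C and -2.38 in KO (adjusted p of their difference 0.652).

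**Figure D5:**
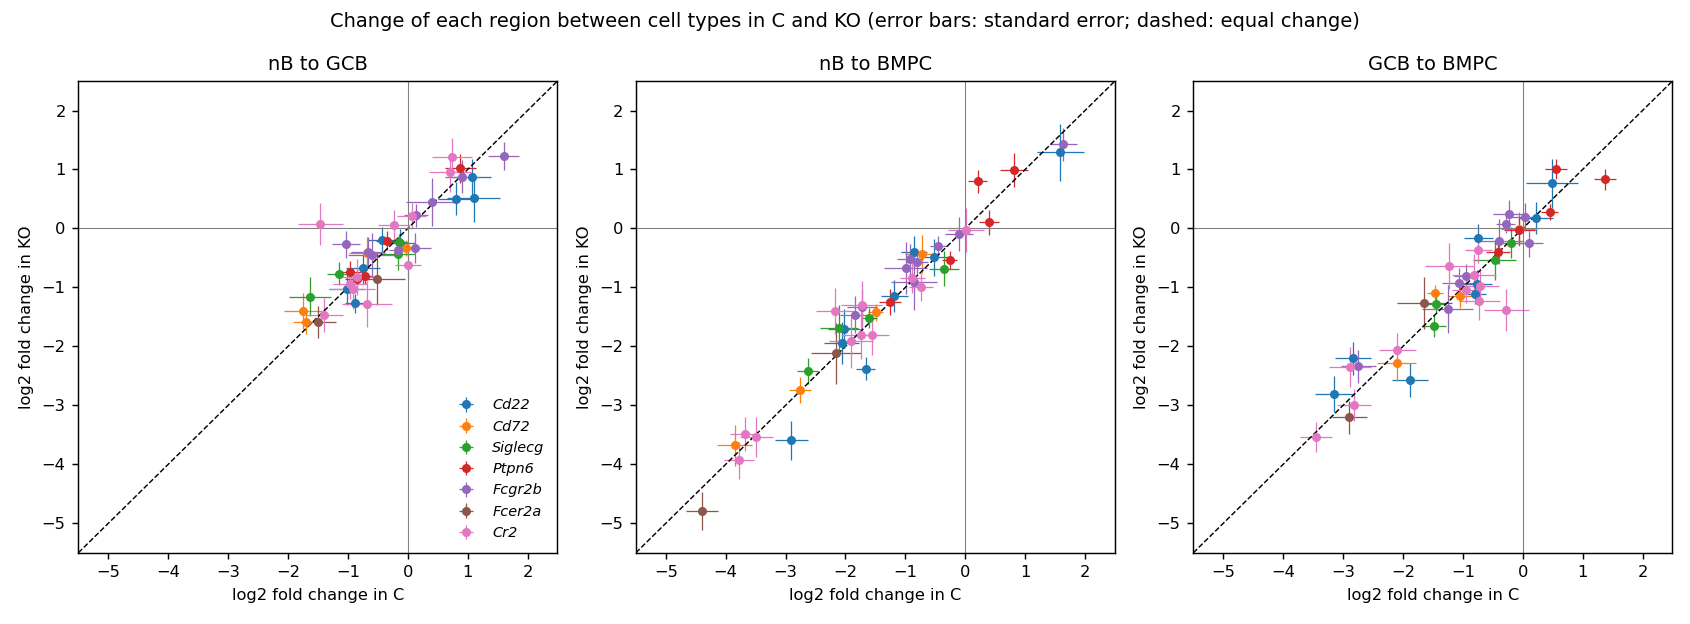
Log2 difference between cell types at each of the 43 regions in C (horizontal axes) and in KO (vertical axes), with standard errors, for nB to GCB, nB to BMPC and GCB to BMPC, and a dashed line where both are equal. Most points lie near the line, from -4.39 in C and -4.79 in KO for the Fcer2a start to 1.64 and 1.42 for the region downstream of Fcgr2b. For nB to GCB the weak Cr2 region 33.5 kb upstream lies off it, with means of 2.79 and 0.440 RPPM in C and 1.86 and 2.11 in KO.

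Genes with the most similar course over the 6 groups were found among 14164 other genes by the root mean square difference of centred group means of log2(summed RPPM + 1). The nearest were Bfsp1 (0.04) for Cr2, Fam204a (0.06) and Plat (0.08) for Cd72, Apobec2 (0.05) and Fam49a (0.06) for Siglecg, and Fgfbp1 (0.08) and Ren2 (0.09) for Cd22. They were Spink13 (0.08) and Il1f10 (0.13) for Fcer2a, Acot12 (0.03) and Tmx2 (0.03) for Fcgr2b, and Reep4 (0.03) and Tmem11 (0.03) for Ptpn6. Each likeness rests on 6 means that share libraries and carries no test.

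Related genes were counted from a fixed list, without a test of the lists. Of 46 listed genes of inhibitory receptors and their signaling, Fc receptors, complement proteins and ligands, among others, 40 had a region, 342 regions in all. From nB to BMPC in C cells 113 of these were called lower and 50 higher, with a median log2 difference of -0.43. Over all regions 20.1% were called lower and 18.0% higher, with a median of 0.03, and these values apply beside each list that follows. The 72 regions of other inhibitory receptors had 35 called lower and 4 higher (median -1.06), and the 34 of other complement genes had 16 lower and 7 higher (median -0.70). Signaling genes had 27 lower and 13 higher of 100 (median -0.33), other Fc receptor genes 10 lower and 4 higher of 38 (median 0.01) and ligand genes 22 lower and 19 higher of 90 (median -0.34). In the share called lower, these last lists lay closer to all regions than the other inhibitory receptors and complement genes did. No related region was called between genotypes.

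The largest changes among these related regions included both directions. The start region of Pirb, an inhibitory receptor for class I histocompatibility molecules, fell from 36.3 ± 3.77 RPPM (n = 3) in nB C to 0.720 ± 0.517 (n = 3) in BMPC C (log2 difference -4.48, adjusted p = 2.96e-14). Regions of Pecam1, an adhesion receptor with inhibitory motifs, and of St6gal1, the enzyme that makes the sialic acid linkage CD22 binds, rose by log2 differences of 4.42 and 4.24, to 58.1 ± 3.51 and 44.8 ± 5.46 RPPM in BMPC C. In GCB, a region upstream of Inpp5d, the gene of the lipid phosphatase SHIP-1 that Fc gamma RIIB recruits, rose to 21.9 ± 4.48 RPPM (n = 2) from 0.736 ± 0.655 (n = 3) in nB C (log2 difference 3.77, adjusted p = 2.42e-09). Another St6gal1 region, nearest to the start of Rtp1, fell by 2.98 on the log2 scale, and a region near Cd59a rose by 2.87.

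Markers of other cell types also differed between the groups. The T cell list had a region for 2 of 4 genes, none within 1 kb of a start, and their sum was 2.63 to 4.90 RPPM in nB, 9.79 to 12.8 in GCB and 10.6 to 19.2 in BMPC, with Cd3g and Cd8a without a region. Within that list the Cd4 region was at 9.96 to 18.6 RPPM in BMPC, while Cd3e was at most 0.91 there and at 1.97 to 4.14 in nB. The myeloid list had 3 of 5 genes, at 12.2 to 17.5, 12.2 to 26.4 and 19.5 to 24.6 RPPM, with Lyz2 and S100a8 without a region. Its genes moved in different directions. Csf1r was at 5.60 to 9.38 RPPM in nB and 0.73 to 3.90 in BMPC, Cebpe at 1.65 to 2.98 and 10.4 to 13.6, and Elane at 3.54 to 6.14 and 5.83 to 8.40. The NK cell list had 1 of 2, at 0.558 to 1.95, 3.82 to 6.61 and 2.05 to 3.58 RPPM, and the erythroid list 3 of 3, at 56.2 to 75.0, 38.7 to 73.4 and 61.3 to 71.2. Their part in the receptor results was not tested.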

How the data were processed

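The authors trimmed ATAC-seq reads from 3000 to 5000 sorted cells per library, mapped them to mm9 with Bowtie (1.1.1 in the submitters' processing notes; a different release in the methods), called peaks per sample with MACS2 2.1.0.20140616 and merged them. The deposited RPM values (called RPPM) are reads in a region divided by the reads in all regions of the library and scaled as RPM. Columns of the authors' own 9 comparisons by edgeR 3.12.1 (log2 fold change, p-value, FDR) were not used. The labels list 17 samples, and 16 have a column; the other, a KO BMPC sample, was not analysed here.

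Each value was a whole number of reads (tolerance 0.01 reads) in 100% of the table's entries. The main test was limma 3.58.1 in R 4.3.3 with a trend on log2(RPPM + 1), 1 mean for each of the 6 groups, all 16 libraries in a single fit, and Benjamini-Hochberg adjustment over 66177 regions. Alternatives were pseudocounts of 0.1 and 5 RPPM, TMM scaling or quantile normalization, a filter that kept regions averaging 1 RPPM or more, the compared groups only, an adjusted p of at most 0.05, omission of single libraries, a replicate block by pool name, and edgeR 4.0.16 (quasi-likelihood and likelihood ratio tests) and DESeq2 1.42.0 on the recovered reads. The scripts were tested on simulated data.

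Regions were described in full by a rule: for each gene the region nearest any annotated transcript start (the higher in mean where several covered one), the highest in mean, those with the smallest p from nB to BMPC, from nB to GCB (both in C) and between genotypes in BMPC, and any called between genotypes. Other regions were named after their values were seen. PCR reads are not independent molecules, and p-values measure the spread between libraries. Members, lists and motifs were chosen with earlier results of these data known. Gene starts came from GENCODE vM1 (NCBIM37, which is mm9), with distances from the outermost start to a region's centre, and sequence from that genome by pysam 0.24.0. The 284 regions on unplaced sequence were left out of motif searches. Genes in the likeness search had a mean sum of at least 5 RPPM. Some items of the labels and lists are not reported here.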

Additional observations from a re-analysis of the deposited data

Results flagged for a closer look

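Single libraries stood apart among the 4 GCB KO libraries at 3 of the 43 regions, by Dixon's ratio above its 95% critical value, a level that chance passes in about 5% of groups. The Siglecg start region had 44.3 RPPM in GCB KO replicate 3 and 29.9 to 30.8 in the others. The Cr2 region 26.6 kb upstream had 11.4 RPPM in the same library and 6.36 to 6.99 in the others. The Ptpn6 region 8.6 kb from the start had 44.1 RPPM in GCB KO replicate 1 and 32.2 to 33.8 in the others. The cause was not tested.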

How the results depend on the processing

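The counts of member regions called between cell types stayed within 1.5 times of the reported ones, apart from the exceptions given here, most of them with a pseudocount of 5 RPPM. With that pseudocount, calls were 5 of 11 from nB to GCB and 16 of 26 from nB to BMPC in C, and 4 of 11 from nB to GCB, 14 of 24 from nB to BMPC and 11 of 20 from GCB to BMPC in KO; a larger pseudocount shrinks differences at low values by construction. A pseudocount of 0.1 RPPM gave 6 calls from nB to GCB in KO. With each library left out in turn, C calls ranged from 8 to 12 from nB to GCB, 26 to 27 from nB to BMPC and 15 to 19 from GCB to BMPC, and KO calls from 5 to 12, 18 to 26 and 14 to 21. The lowest of these, 5, came without nB KO replicate 1, and the cause was not tested. Counts of members called between genotypes and for interactions were 0 under every alternative. Over all member regions, comparisons between cell types or genotypes and alternatives, 9812 results kept their side of the threshold, 166 lost a call, 118 gained 1 and no called value changed sign. Over all 66177 regions the genotype counts depended on the tool: in BMPC limma called 69, edgeR 1201 by quasi-likelihood and 1677 by likelihood ratio, and DESeq2 494, while in GCB they called 21, 1, 12 and 0 and in nB 0, 7, 10 and 1, none of them a member. A replicate block by pool name gave 0 calls between genotypes in GCB, as without it. With the block, 5 members had an unadjusted p under 0.05 in place of 2. The pools named F2 and M1 in both genotypes were different animals, and the names were not taken as pairs. Their deviations correlated at 0.036 and 0.064, and those of C pool F2 and KO pool F1 at 0.040. Deviations of the 2 C libraries mirror each other, so these correlations cannot decide on pairing. GCB libraries had the fewest reads, so that changes at regions of a few RPPM were least detectable there.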
